A study of Mus musculus with 36 samples.

Results

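The miR-29 family was followed by miRNA sequencing in developing kidneys of mice with a conditional loss of Pkd1 or Pkd2, as 2 models of dominant polycystic kidney disease. The members were chosen by name, as the rows of the deposited count table for mmu-miR-29a-3p, mmu-miR-29a-5p, mmu-miR-29b-3p, mmu-miR-29c-3p and mmu-miR-29c-5p (written without the species prefix from here on), and they make up 5 of the 1915 mature miRNAs listed and of the 1590 with a read in any library. In the Pkd1 model both copies of Pkd1 carried loxP sites (Pkd1f/f), and in the Pkd2 model both copies of Pkd2 did (Pkd2f/f). Animals that also carried HoxB7-Cre (Pkd1f/f:HoxB7-Cre and Pkd2f/f:HoxB7-Cre) are called KO, and their floxed littermates without Cre, of the same age, are called WT. The strain background was C57BL/6 throughout. RNA of whole kidneys was sequenced on postnatal day 1 (P1), day 3 (P3) and day 7 (P7). Each of the 12 groups held 3 libraries, which makes 36. HoxB7-Cre is active in the collecting duct, so the targeted cells were a part of the tissue that was sequenced, and in such bulk RNA fewer cells of a type and less RNA per cell cannot be told apart. The labels do not say whether replicates came from separate animals, so p-values measure the spread between these libraries. The targeted genes encode messenger RNAs that were not analysed here, so the genotypes rest on the labels.

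A miRNA hairpin is cut into a 5p and a 3p strand, and the strand that stays in the Argonaute protein pairs through its seed, bases 2 to 8, with target messenger RNAs and lowers their output. The miR-29 family is known for targeting messenger RNAs of the extracellular matrix, among them those of fibrillar and basement membrane collagens, elastin and fibrillin. In fibrotic kidneys the family is a known downstream gene group of TGF-beta and Smad3 signalling, which represses it.

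The mature sequences are shown because the 3p members differ by few bases and share 1 seed, in capitals, whereas the 5p strands do not. They were taken from RefSeq on build GRCm38.p6, in which all 5 names matched, and are written 5′ to 3′.
miR-29a-3p: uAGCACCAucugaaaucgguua
miR-29b-3p: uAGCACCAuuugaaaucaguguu
miR-29c-3p: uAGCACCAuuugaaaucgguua
miR-29a-5p: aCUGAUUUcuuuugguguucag
miR-29c-5p: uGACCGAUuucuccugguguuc

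The seed AGCACCA was found in these 3 names among the 1679 mature miRNAs of the RefSeq table. Counted from 1 at the 5′ end, miR-29a-3p and miR-29c-3p differed at 1 base of 22, C10U. From miR-29c-3p to miR-29b-3p the substitutions were G18A, U21G and A22U, and miR-29b-3p has 1 base more. A read with an error at base 10 could therefore be counted for the wrong member of the miR-29a-3p and miR-29c-3p pair, and the mismatches the counting allowed are not given in the sources used here.

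The genes lie in 2 pairs. On chromosome 6 miR-29a-3p is at chr6:31062673-31062694 on the minus strand, in the hairpin gene Mir29a, which overlapped no other gene in the GENCODE annotation of GRCm38. Its neighbour Mir29b-1, 275 bases away on the same strand, lies in an exon of the long noncoding RNA gene Gm27019. On chromosome 1 miR-29c-3p is at chr1:195037600-195037621 on the plus strand in Mir29c, 426 bases from Mir29b-2, and both of these hairpins overlap exons of the noncoding gene A330023F24Rik and, on the opposite strand, of the protein-coding gene Cd46. The mature miR-29b-3p is encoded at both places, chr6:31063025-31063047 and chr1:195037091-195037113, so its reads cannot be assigned to a pair. The count table listed it under both hairpins with 3224 and 3187 reads, and the row with the higher total was used.

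The family was a small part of the kidney miRNA pool. Libraries held 12569939 to 32663566 reads, of which 217 to 4116 belonged to the 5 members, or 0.00167% to 0.0154%. Over all libraries miR-29c-3p had 26206 reads and miR-29a-3p 23073, against 3567 for miR-29c-5p, 3224 for miR-29b-3p and 739 for miR-29a-5p. The sparsest member, miR-29a-5p, had under 10 reads in 11 of the 18 Pkd1 libraries and none under 10 in the Pkd2 model, so its Pkd1 values rest on few reads. The floor of 3 reads was worth 0.0593 to 0.471 CPM (normalised counts per 1000000 reads) depending on the library, and such floors cover counting error only. The pair of miR-10a-5p and miR-10b-5p took 31.4% to 81.0% of a library's reads, and it exceeded 70% in 6 Pkd1 and 2 Pkd2 libraries. All levels below are CPM scaled by trimmed mean of M values (TMM) over the 36 libraries.

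**Figure D1:**
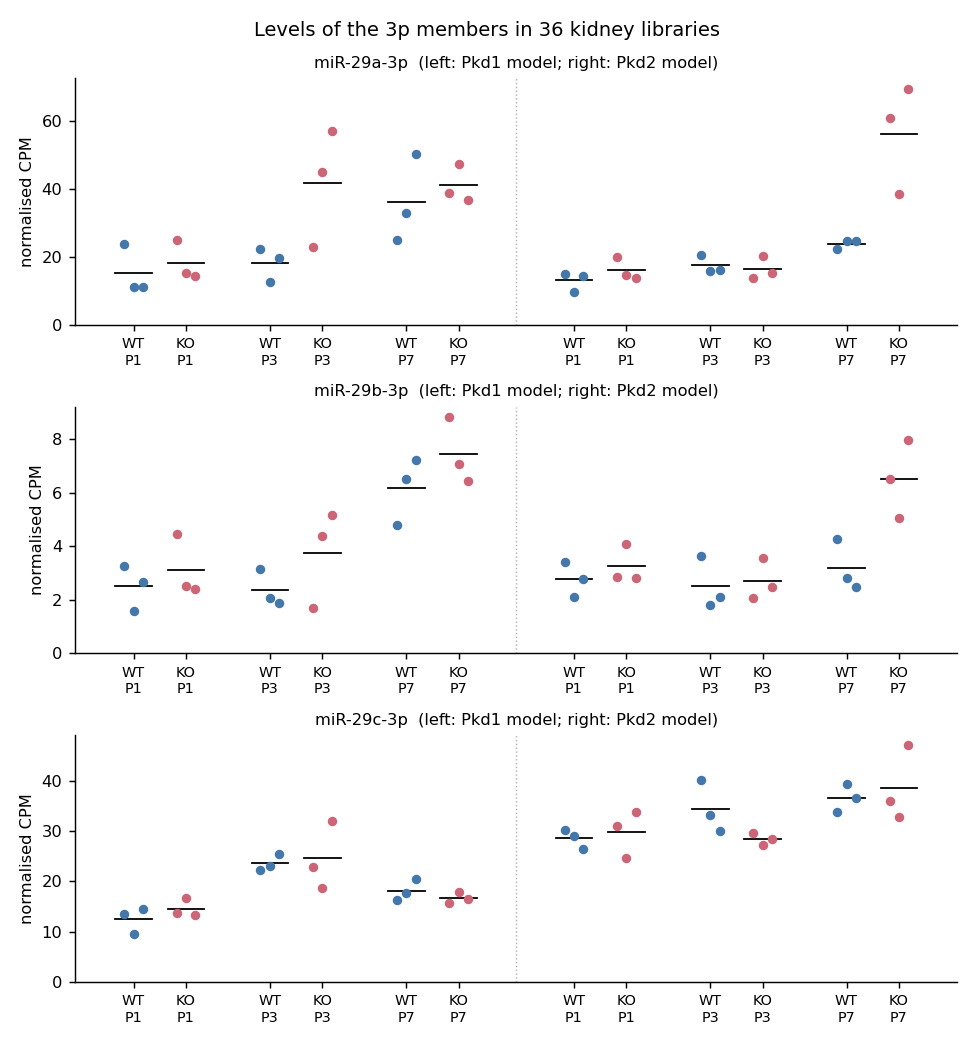
Normalised CPM (linear axes from 0) of miR-29a-3p, miR-29b-3p and miR-29c-3p in each of the 36 libraries, by model, age and genotype, with a point per library and a bar at the group mean of 3. In the Pkd2 model at P7 the KO points of miR-29a-3p, at 38.4 to 69.5, lie above the WT points, at 22.2 to 24.6, while those of miR-29c-3p overlap.

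The comparison of KO with WT at P7 asks which miRNAs differ once the mutant kidneys had been growing for a week. In the Pkd2 model 2 of the 5 members, miR-29a-3p and miR-29b-3p, were higher in KO in edgeR's quasi-likelihood test at an adjusted p under 0.05, and none was lower. Of all 746 miRNAs tested in this comparison 12.6% passed the same threshold, 8.98% as higher. The median log2 fold change of the 5 members was 1.10, against 0.02 over all miRNAs tested.

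The level of miR-29a-3p in Pkd2 KO kidneys at P7 was 60.8, 38.4 and 69.5 CPM in the 3 libraries, and in WT kidneys it was 22.2, 24.6 and 24.6. Every KO library was above every WT library, and the WT libraries lay close together (23.8 ± 1.38, SD, n = 3) while the KO libraries were spread (56.3 ± 16, SD, n = 3). The log2 fold change was 1.31 ± 0.23 (SE), with an adjusted p of 0.00648 in edgeR. The call was lost without KO replicate 3, when the log2 fold change was 1.11 and the adjusted p 0.0621 in edgeR, and with scaling by library totals alone, when they were 1.41 and 0.0944.

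For miR-29b-3p, which is partly encoded next to miR-29a-3p, the KO levels were 6.53, 5.05 and 7.98 CPM and the WT levels 4.29, 2.80 and 2.48. The groups did not overlap, though the lowest KO and the highest WT library were near each other. The log2 fold change was 1.10 ± 0.31 (SE) with an adjusted p of 0.0263 in edgeR. This call was less firm than that of miR-29a-3p: the adjusted p in edgeR rose to 0.141 when WT replicate 2 was left out, to 0.128 when WT replicate 3 was and to 0.149 when KO replicate 3 was. With library totals alone its log2 fold change was 1.24 with an adjusted p of 0.0944 in edgeR, and with only the compared libraries in the fit 1.16 and 0.0671.

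The third bearer of the seed, miR-29c-3p, did not pass. Its KO levels were 36, 32.8 and 47.2 CPM and its WT levels 33.9, 39.4 and 36.7. The groups overlapped, and the log2 fold change was 0.14 ± 0.18 (SE) with an adjusted p of 0.653 in edgeR. Between the 3 members the sum of levels was 63.6 ± 3.23 CPM in WT and 101 ± 24.3 CPM in KO (SD, n = 3).

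Neither 5p strand passed in edgeR in the Pkd2 model at P7, although miR-29a-5p did in DESeq2. The levels of miR-29a-5p, the strand opposite miR-29a-3p in its hairpin, were 1.46, 4.82 and 3.64 CPM in KO and 2.02, 0.819 and 0.444 in WT, which overlap at the lowest KO library. The log2 fold change was 1.68 ± 0.61 (SE) with an adjusted p of 0.0785 in edgeR. The adjusted p was 0.0429 in DESeq2, at a log2 fold change of 1.63, and 0.0480 in edgeR without the filter on low counts. For miR-29c-5p the KO levels ran from 2.89 to 13.3 CPM and the WT levels from 3.55 to 8.70, and the log2 fold change was 0.59 ± 0.61 (SE). The KO library with the highest value of both, replicate 2, was also that with the largest miR-10 share, 74.1%, against 41.1% and 57.4% in the other KO libraries.

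No member passed at P7 in the Pkd1 model, where 0.425% of the 706 miRNAs tested did. None of the 5 had an unadjusted p under 0.05 in edgeR, and DESeq2 called 0 as well. The levels of miR-29a-3p were 38.9, 47.4 and 36.8 CPM in KO and 24.9, 32.9 and 50.3 in WT. The WT libraries covered the whole range of the KO libraries, and the log2 fold change was 0.26 ± 0.37 (SE). For miR-29b-3p the KO levels were 8.84, 7.09 and 6.45 CPM and the WT levels 4.81, 6.51 and 7.24, with a log2 fold change of 0.34 ± 0.39 (SE). For miR-29c-3p the log2 fold change was -0.05 ± 0.22 (SE), with 15.8 to 17.9 CPM in KO and 16.3 to 20.5 CPM in WT. The 5p strands had negative values that did not pass, -0.91 ± 0.68 (SE) for miR-29a-5p and -0.35 ± 0.61 (SE) for miR-29c-5p. Without the libraries whose miR-10 share exceeded 70%, which left 1 library in each Pkd1 group at P7, the log2 fold changes of miR-29a-3p and miR-29b-3p were -0.21 and -0.15.

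A further fit, over the 36 libraries together, compared the KO effect of one model with that of the other. At P7 none of the 5 members passed in edgeR or DESeq2, where 0.387% of 775 miRNAs did in edgeR, and 2 had an unadjusted p under 0.05. The Pkd1 effect minus the Pkd2 effect was -1.06 ± 0.46 (SE) on the log2 scale for miR-29a-3p, with an unadjusted p of 0.0306 and an adjusted p of 0.386 in edgeR. It was -0.78 ± 0.51 (SE) for miR-29b-3p, -0.20 ± 0.26 (SE) for miR-29c-3p and -2.60 ± 0.96 (SE) for miR-29a-5p. A difference between the models was thus not shown for any member by the adjusted p.

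**Figure D2:**
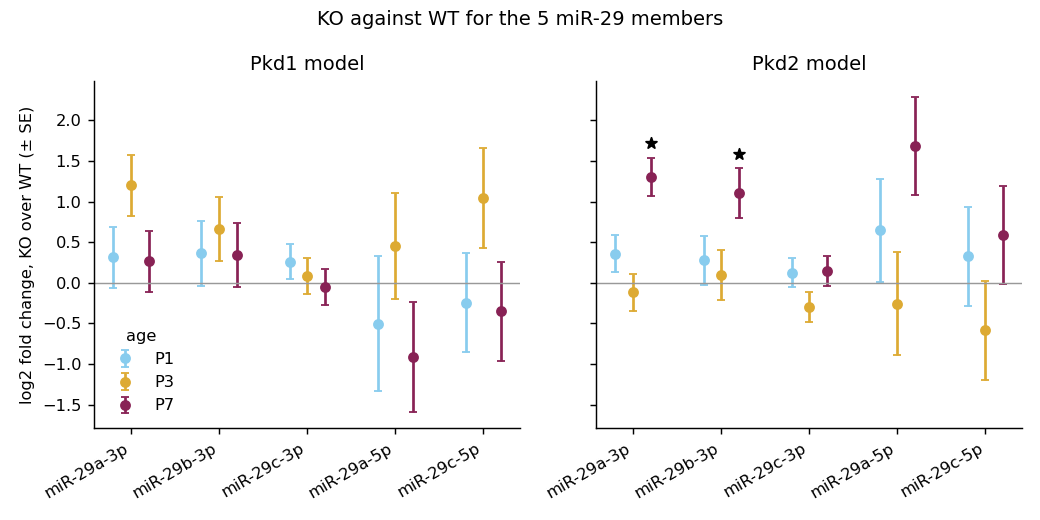
Log2 fold change of KO over WT, with the SE as error bars, for the 5 members at P1, P3 and P7 in the Pkd1 model (left) and the Pkd2 model (right), from fits of 18 libraries per model. A star marks an adjusted p under 0.05, which was reached by miR-29a-3p at 1.31 and miR-29b-3p at 1.10 in the Pkd2 model at P7.

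At P1 and P3 no member was called between KO and WT in either model by edgeR or DESeq2, and 0% of all miRNAs passed in edgeR. At an unadjusted p under 0.05 in edgeR 1 member stood out in the Pkd1 model at P3 and 0 in the other comparisons at these ages. The Pkd1 kidneys at P3 had miR-29a-3p at 23.0, 44.9 and 57.1 CPM in KO and 22.2, 12.7 and 19.6 CPM in WT. All KO libraries were above all WT libraries, the lowest of them by a small margin, and the log2 fold change was 1.20 ± 0.38 (SE) with an unadjusted p of 0.00599 and an adjusted p of 0.382 in edgeR. The other seed bearers at that age had log2 fold changes of 0.66 ± 0.40 (SE) for miR-29b-3p and 0.08 ± 0.22 (SE) for miR-29c-3p. In the Pkd2 model at P3 miR-29a-3p stood at -0.12 ± 0.23 (SE), and the difference between the models at P3 was 1.28 ± 0.46 (SE) with an adjusted p of 0.643 in edgeR.

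Also at P3, miR-29c-3p of the Pkd2 model was 29.7, 27.4 and 28.4 CPM in KO and 40.3, 33.2 and 30.1 in WT. All KO libraries were below all WT libraries, but the log2 fold change of -0.30 ± 0.18 (SE) did not pass, with an adjusted p of 1.00 in edgeR. At P1 miR-29a-5p of the Pkd2 model was 0.717, 0.651 and 0.585 CPM in KO and 0.510, 0.334 and 0.447 in WT, again without overlap and without passing, at a log2 fold change of 0.65 ± 0.63 (SE). Groups of 3 libraries can separate without a difference between genotypes. The share of all miRNAs that separated at P1 and P3 was not counted, so these separations are given as description only. The remaining log2 fold changes at P1 lay between -0.50 for miR-29a-5p and 0.36 for miR-29b-3p, both among Pkd1 kidneys. In the Pkd2 model the KO effect was larger at P7 than at P1 by 0.95 ± 0.33 (SE) for miR-29a-3p, with an adjusted p of 0.163 in edgeR, which did not pass where 0.536% of miRNAs did. Without the 2 Pkd2 libraries over 70% miR-10 this difference was 1.29 with an adjusted p of 0.0225 in edgeR.

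Growth of the control kidney between P1 and P7 was the other axis of the design, and miR-29a-3p was called higher with age in both models. In the Pkd1 model 3 members rose in WT kidneys, where 21.5% of 706 miRNAs passed (10.3% as higher), and in the Pkd2 model 1 rose, where 28.3% of 746 did (11.4% as higher). In Pkd1 WT kidneys miR-29a-3p was 23.8, 11 and 11.1 CPM at P1 and 24.9, 32.9 and 50.3 CPM at P7. The libraries of P7 were all above those of P1, by 1.31 ± 0.38 (SE) on the log2 scale with an adjusted p of 0.0271 in edgeR. In Pkd2 WT kidneys it was 14.9, 9.78 and 14.5 CPM at P1 and 22.2, 24.6 and 24.6 CPM at P7, again without overlap. That log2 fold change was 0.79 ± 0.23 (SE) with an adjusted p of 0.0183 in edgeR.

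Of the other members, miR-29b-3p and miR-29a-5p were called with age in Pkd1 WT kidneys, and the models were not shown to differ. In Pkd1 WT kidneys miR-29b-3p was 3.27, 1.58 and 2.66 CPM at P1 and 4.81, 6.51 and 7.24 CPM at P7, a log2 fold change of 1.36 ± 0.41 (SE) with an adjusted p of 0.0287 in edgeR. In Pkd2 WT kidneys its change was 0.13 ± 0.31 (SE), and the difference between the models was 1.08 ± 0.52 (SE) with an unadjusted p of 0.0471 and an adjusted p of 0.669 in edgeR, where 0.258% of miRNAs passed. The strand miR-29a-5p was 0.304, 0.242 and 0.161 CPM at P1 and 1.24, 2.48 and 0.990 CPM at P7 in Pkd1 WT kidneys, which is 8, 2 and 2 reads against 9, 16 and 16. Its log2 fold change of 2.68 ± 0.74 (SE), with an adjusted p of 0.0222 in edgeR, therefore depends on libraries under the floor of 3 reads. The changes of miR-29c-3p from P1 to P7 were 0.61 ± 0.22 (SE) in the Pkd1 model, with an adjusted p of 0.0599 in edgeR, and 0.28 ± 0.18 (SE) in the Pkd2 model.

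These age calls changed with the libraries and the scaling. Scaled by library totals alone, the log2 change of the median miRNA from P1 to P7 was -0.68 in Pkd1 WT and -0.78 in Pkd2 WT kidneys, against -0.03 and -0.06 with TMM. Relative to that median miR-29a-3p was higher by 1.35 in Pkd1 and by 0.87 in Pkd2 WT kidneys, against 1.34 and 0.85 with TMM. With totals alone its own log2 fold changes were 0.67 and 0.09, and neither passed. In Pkd1 WT kidneys the adjusted p of miR-29a-3p in edgeR was 0.0817 without P1 replicate 2, 0.0711 without P1 replicate 3 and 0.123 without P7 replicate 3, and in Pkd2 WT kidneys it was 0.0893 without P1 replicate 2. Without the libraries over 70% miR-10 1 library was left at P7 and 2 at P1 in Pkd1 WT kidneys, and no member was called. The log2 fold change of miR-29a-3p was then 1.50, with an adjusted p of 0.157 in edgeR. For miR-29b-3p in Pkd1 WT kidneys the adjusted p in edgeR was 0.0862 without P1 replicate 2, 0.0665 without P7 replicate 2 and 0.0967 without P7 replicate 3. For miR-29a-5p it was 0.0515 without P1 replicate 1 and 0.0740 without P7 replicate 2.

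Within the week the calls in Pkd1 WT kidneys fell between P1 and P3 for miR-29c-3p and between P3 and P7 for miR-29b-3p, and the difference between these members in timing was not tested. The level of miR-29c-3p went from 13.6, 9.57 and 14.6 CPM at P1 to 22.2, 23.0 and 25.5 CPM at P3, a log2 fold change of 0.96 ± 0.22 (SE) with an adjusted p of 0.0132 in edgeR, where 18.8% of miRNAs passed (8.22% as higher). That call was lost with library totals alone (log2 fold change 1.55, adjusted p = 0.0931 in edgeR), with only the compared libraries in the fit (0.92, 0.127) and without the libraries over 70% miR-10 (0.80, 0.0574). At P7 it was 16.3, 17.7 and 20.5 CPM, below every P3 library, but the log2 fold change of -0.35 ± 0.22 (SE) did not pass. With library totals alone it was -1.59 and passed as lower, with an adjusted p of 0.0280 in edgeR, while the median miRNA stood at -1.27 and miR-29c-3p at -0.32 relative to it. The level of miR-29b-3p stood at -0.05 ± 0.40 (SE) from P1 to P3 and rose by 1.41 ± 0.40 (SE) from P3 to P7, with an adjusted p of 0.0317 in edgeR, where 14.4% passed (6.23% as higher). That call was lost without P3 replicate 2 (adjusted p = 0.0940 in edgeR), P3 replicate 3 (0.1003), P7 replicate 2 (0.0615) or P7 replicate 3 (0.0934), and with library totals alone, when the log2 fold change was 0.23 with an adjusted p of 0.730. From P3 to P7 miR-29a-3p changed by 1.00 ± 0.38 (SE), with an adjusted p of 0.0900 in edgeR. In Pkd2 WT kidneys no member passed in edgeR or DESeq2, and none had an unadjusted p under 0.05, from P1 to P3, where 0.268% of miRNAs did, or from P3 to P7, where 4.16% did.

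In KO kidneys miR-29a-3p and miR-29b-3p were called higher at P7 than at P1 in both models, and miR-29a-5p in the Pkd2 model as well. Among Pkd1 KO kidneys 2 members rose, where 17.1% of miRNAs passed (10.1% as higher), namely miR-29a-3p by 1.26 ± 0.38 (SE) with an adjusted p of 0.0333 and miR-29b-3p by 1.34 ± 0.40 (SE) with an adjusted p of 0.0332 in edgeR. Both calls were lost without either of P1 replicates 2 and 3 or any 1 of the P7 libraries, with adjusted p in edgeR of 0.0502 to 0.121. Among Pkd2 KO kidneys 3 rose, where 24.4% passed (11.8% as higher). There miR-29a-3p went from 20.1, 14.7 and 13.8 CPM to 60.8, 38.4 and 69.5 CPM, a log2 fold change of 1.74 ± 0.24 (SE) with an adjusted p of 0.000107 in edgeR. The changes of miR-29a-5p and miR-29b-3p were 2.25 ± 0.60 (SE) and 0.96 ± 0.30 (SE), with adjusted p of 0.0139 and 0.0297 in edgeR. Without P1 replicate 3 miR-29a-3p alone was called, with adjusted p in edgeR of 0.0540 for miR-29a-5p and 0.102 for miR-29b-3p. The call of miR-29a-5p was also lost without P7 replicate 2 (adjusted p = 0.0513 in edgeR), and that of miR-29b-3p without P1 replicate 1 (0.0861) or P7 replicate 3 (0.120). That of miR-29b-3p was lost as well without the filter on low counts (adjusted p = 0.0502 in edgeR) and with only the compared libraries in the fit (0.0580). With library totals alone neither miR-29a-3p nor miR-29b-3p passed, at log2 fold changes of 0.14 and 0.19 in Pkd1 KO and 0.94 and 0.11 in Pkd2 KO kidneys. The median miRNA then stood at -1.16 and -0.97, and relative to it miR-29a-3p was higher by 1.30 and 1.91, against 1.30 and 1.81 with TMM. The P7 KO libraries also enter the comparison of KO with WT at P7, so these values are not separate evidence.

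The balance of miR-29a-3p and miR-29c-3p, which share the seed, was compared within libraries, since a ratio of 2 read counts in 1 library does not depend on scaling. In the Pkd2 model at P7 there were 1.69, 1.17 and 1.47 reads of miR-29a-3p per read of miR-29c-3p in KO and 0.656, 0.624 and 0.671 in WT. Every KO library was above 1 and every WT library below it. The Pkd1 model at P7 had ratios of 2.46, 2.64 and 2.23 in KO and 1.52, 1.86 and 2.45 in WT, which overlap. Averaged over the models the log2 ratio was higher in KO by 0.75 at P7 (0.36 in the Pkd1 and 1.14 in the Pkd2 model), with p = 0.01 in a two-sided exact permutation test within models, whose smallest possible p is 0.005. Adjusted over the 16 ratio tests made, that p was 0.12, so the difference did not pass. A single ratio at the smallest possible p would not have passed after this adjustment either. The adjusted test therefore could not decide whether this ratio alone differed.

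As a share of the reads of the 3 seed bearers, miR-29a-3p held 37.4% ± 1.03 in Pkd2 WT kidneys at P7 and 55.0% ± 4.27 in Pkd2 KO kidneys (SD, n = 3). At that age it held 58.7% ± 5.29 in Pkd1 WT and 62.8% ± 2.33 in Pkd1 KO kidneys. At P1 miR-29a-3p held 49.2% ± 9.67 in Pkd1 WT and 29.2% ± 4.81 in Pkd2 WT kidneys, and at P3 miR-29c-3p held the larger share in WT kidneys of both, 54.0% ± 7.15 and 63.3% ± 1.67 (SD, n = 3). From P1 to P7 the log2 ratio in WT kidneys was higher by 0.63 on average, by 0.72 in Pkd1 and 0.53 in Pkd2 kidneys, with p = 0.015 in the exact permutation test and 0.12 adjusted. At P3 KO exceeded WT by 0.64 (adjusted p = 0.32) and at P1 by 0.17 (adjusted p = 0.778), both in the exact permutation test. The ratio of miR-29b-3p to miR-29a-3p ran from 0.0737 to 0.280 over all libraries, and its 4 comparisons had adjusted p of 0.653 or more in the exact permutation test.

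**Figure D3:**
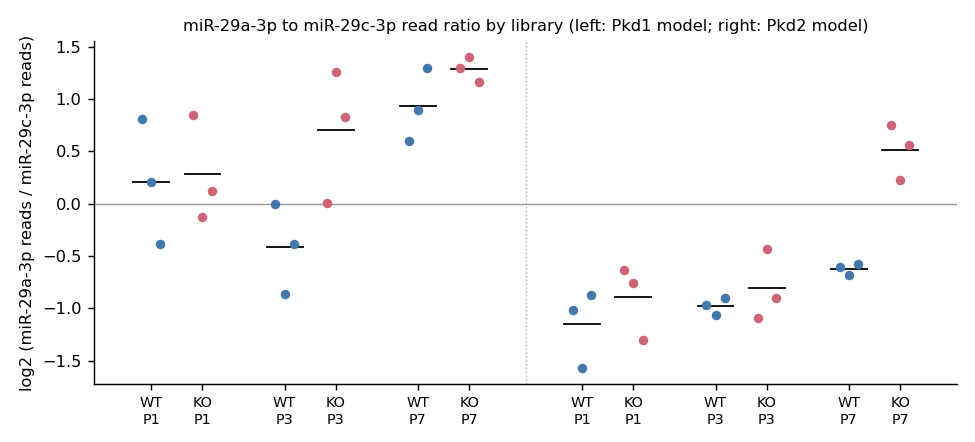
Log2 ratio of miR-29a-3p to miR-29c-3p reads in each of the 36 libraries, with a point per library and a bar at the mean of each group of 3; 0 marks equal reads. The Pkd2 WT libraries lie below 0 at all ages and the Pkd2 KO libraries at P7 above it, from 0.23 to 0.76.

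Across all ages and genotypes the group means of miR-29c-3p did not overlap between the models, though single libraries did. Its group means ran from 12.6 to 24.6 CPM in the Pkd1 model and from 28.5 to 38.7 CPM in the Pkd2 model, and single libraries from 9.57 to 32.1 and from 24.7 to 47.2. The other members had no such order, with group means of miR-29a-3p from 15.3 to 41.6 CPM in the Pkd1 and from 13.0 to 56.3 CPM in the Pkd2 model. Of the marker lists described below, the endothelial sum had group means of 7048 to 9224 CPM in the Pkd1 and 12756 to 20879 CPM in the Pkd2 model. The epithelial sum also separated, at 2814 to 3976 and 4167 to 6662 CPM, and the other marker lists did not. The share of all miRNAs that separated by model was not counted. The models were compared here as described, with no test, and the labels do not say whether their libraries were made together.

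The order of the members within a group was as follows. In every Pkd2 group but KO at P7 miR-29c-3p had the highest mean level and miR-29a-3p the next, and in KO at P7 miR-29a-3p led. Among the Pkd1 groups miR-29a-3p led in 5 of 6 groups and miR-29c-3p in WT at P3. Neighbours in these orders lay within their spread in Pkd1 kidneys at P1, where miR-29a-3p was 15.3 ± 7.34 and miR-29c-3p 12.6 ± 2.65 CPM in WT (SD, n = 3).

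The 5p and 3p strands of a hairpin did not keep a fixed ratio, and this ratio followed the miR-10 share of the library. There were 1.45 to 15.2 reads of miR-29c-3p per read of miR-29c-5p and 7.91 to 141.8 reads of miR-29a-3p per read of miR-29a-5p. In the 8 libraries over 70% miR-10 the miR-29c ratio ran from 1.45 to 3.23, and in the other 28 from 3.25 to 15.2, with medians of 2.34 and 7.96. The highest value was that of Pkd1 WT at P3 replicate 3, with 37.3% miR-10. Within 1 group, Pkd1 KO at P3, replicate 1, with 31.4% miR-10, had 15.0 reads of the 3p per 5p strand and replicate 2, with 79.8%, had the lowest value, 1.45. In 8 of the 12 groups the library with the most miR-10 had the lowest miR-29c ratio, and in 9 of 12 the lowest miR-29a ratio.

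Within each model the log2 miR-29c ratio was lower at a higher miR-10 share, with Pearson's r of -0.94 and Spearman's rho of -0.91 over the 18 Pkd1 libraries and -0.97 and -0.95 over the 18 Pkd2 libraries. Without the 2 libraries farthest from the median share Pearson's r was -0.91 and -0.94. For the miR-29a ratio Pearson's r was -0.61 in the Pkd1 and -0.90 in the Pkd2 model. These are descriptions of a relation noticed in the data, with no p, and the libraries share groups and depth. For the ratio of miR-29a-3p to miR-29c-3p Pearson's r was 0.40 and 0.32. For that of miR-29b-3p to miR-29a-3p it was 0.72 in the Pkd1 model (0.49 without the 2 farthest libraries) and 0.16 in the Pkd2 model, with Spearman's rho of 0.63 and 0.31.

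**Figure D4:**
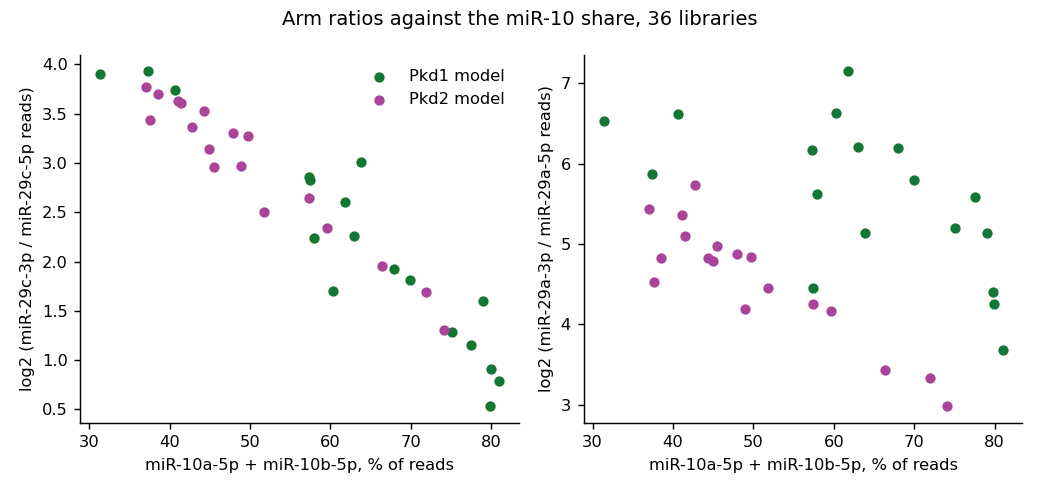
Log2 ratio of 3p to 5p reads of the miR-29c hairpin (left) and of the miR-29a hairpin (right) against the share of miR-10a-5p and miR-10b-5p in a library's reads (%), with a point per library, coloured by model. The miR-29c ratio falls from 3.90 at 31.4% to 0.78 at 81.0%.

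The levels of the 5p strands followed the same division. In libraries over 70% miR-10 the median of miR-29c-5p was 9.44 CPM, against 3.12 CPM in the others, and that of miR-29a-5p 1.62 against 0.534 CPM. For miR-29c-3p the order was opposite, with medians of 17.1 and 27.9 CPM. As 6 of the 8 libraries belong to the Pkd1 model and most are from P7, model, age and miR-10 share cannot be told apart in these pooled medians. When the miR-10 share entered the fit as a term all 5 members were called from P1 to P7 in Pkd1 WT kidneys, and the log2 fold change of miR-29a-5p between KO and WT in the Pkd2 model at P7 was 1.42 with an adjusted p of 0.00305 in edgeR. No difference of an arm ratio between KO and WT or between ages passed the exact permutation test, with adjusted p of 0.64 or more.

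The remaining strands, miR-29b-1-5p and miR-29b-2-5p, are the companions of miR-29b-3p in its hairpins. They had 148 and 443 reads over all libraries. For miR-29b-2-5p the log2 fold change between KO and WT at P7 was -0.38 ± 0.51 (SE) in the Pkd1 and 0.57 ± 0.51 (SE) in the Pkd2 model, and neither passed. The strand miR-29b-1-5p did not pass the filter on low counts within a model. It had 8, 18 and 33 reads in Pkd2 KO and 6, 0 and 2 in Pkd2 WT libraries at P7. These reads did not overlap, but the levels did, at 0.229 to 1.36 CPM in KO and 0 to 0.378 CPM in WT. KO was not tested against WT within the model. In the fit over 36 libraries the Pkd1 effect minus the Pkd2 effect at P7 was -1.91 ± 1.94 (SE) and did not pass.

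Cell composition was looked at through lists of marker miRNAs, all of whose members were listed in the table. For the Pkd2 model at P7 the summed level of the 4 erythroid markers, among them miR-451a, was 3511 to 5654 CPM in KO and 2243 to 2722 CPM in WT, and that of the 3 skeletal muscle markers 26.2 to 105 and 18.2 to 19.1 CPM. The 4 tubule markers, whose sum is mostly miR-30a-5p, had 40853 to 79958 CPM in KO and 76852 to 84850 in WT, and the 2 endothelial markers 10549 to 15597 and 15570 to 23723. The 4 smooth muscle and stroma markers, whose sum is mostly miR-143-3p (a median of 38055 CPM over all libraries, against 345 to 4166 for the other 3), overlapped, at 42992 to 84131 and 44988 to 72104 CPM, as did the 5 leukocyte markers, at 425 to 567 and 353 to 465 CPM. The 5 epithelial markers had 5935 to 6326 CPM in KO and 6040 to 7461 in WT, the 2 neural markers 220.2 to 335 and 212 to 243, and the liver marker miR-122-5p 2.49 to 14.1 and 0.851 to 2.96. Of the markers miR-206-3p and miR-124-3p were at 0 in 5 libraries each. By medians over all libraries, the erythroid sum is mostly miR-486a-5p, at 1949 CPM against 684 for miR-451a. The endothelial sum is mostly miR-126a-5p (8652 CPM, against 2157 for miR-126a-3p). The muscle sum is mostly miR-133a-3p (30.6 CPM) and the neural sum mostly miR-9-5p (232 CPM). The part of these marker shifts in the higher miR-29a-3p and miR-29b-3p was not tested.

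For the Pkd1 model at P7 the tubule markers were lower in KO without overlap, at 62870 to 77567 CPM against 90095 to 97675, whereas those of the Pkd2 model overlapped. The erythroid markers of the Pkd1 model overlapped, at 3081 to 3347 and 3219 to 4016 CPM. From P1 to P7 the stroma markers went from 34287 to 42548 CPM up to 51525 to 103090 CPM in Pkd1 WT kidneys, and from 34004 to 39876 up to 44988 to 72104 CPM in Pkd2 WT kidneys. The tubule markers were also higher at P7, going from 49686 to 68539 up to 90095 to 97675 CPM in Pkd1 and from 38045 to 43073 up to 76852 to 84850 CPM in Pkd2 WT kidneys. The epithelial markers did not overlap between these ages either, at 2266 to 3272 and 3394 to 5017 CPM in Pkd1 and 3950 to 4457 and 6040 to 7461 CPM in Pkd2 WT kidneys. The same held for the leukocyte markers in Pkd1 WT kidneys, at 177 to 231 and 314 to 496 CPM, and for the endothelial markers in Pkd2 WT kidneys, at 13821 to 15280 and 15570 to 23723 CPM. Muscle markers reached 1525 CPM in a Pkd1 WT library at P1 and the liver marker 274 CPM in a Pkd2 WT library at P1. Their part in the age changes of the family was not tested.

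The members were set beside 20 other miRNAs that have been linked to kidney fibrosis and matrix, all of which were tested. Between KO and WT of the Pkd2 model at P7 6 of them were called higher and 2 lower in KO, where 12.6% of all miRNAs passed and 8.98% did as higher. The largest were miR-433-3p at 1.5 ± 0.41 (SE), miR-382-5p at 1.43 ± 0.36 (SE) and miR-34a-5p at 1.23 ± 0.27 (SE) on the log2 scale, with adjusted p of 0.0239, 0.0175 and 0.0147 in edgeR. All 3 calls were lost without WT replicate 2, WT replicate 3 or KO replicate 3, and those of miR-433-3p and miR-382-5p also without WT replicate 1, with adjusted p in edgeR of 0.0558 to 0.159. With library totals alone none of the 3 passed, at log2 fold changes of 1.67, 1.57 and 1.38. The median of the list was -0.04, against 0.02 over all miRNAs. Of the 20, 1 was called in the Pkd1 model at P7, where 0.425% of all miRNAs were, miR-21a-5p, an injury-induced miRNA, at 1.45 ± 0.17 (SE) with an adjusted p of 0.00017 in edgeR. With library totals alone the log2 fold change was 1.38 with an adjusted p of 0.904, and without the libraries over 70% miR-10, which left 1 library in each group, it was 1.32 with an adjusted p of 0.721, both in edgeR. At P1 and P3 none was called in either model.

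From P1 to P7 in WT kidneys 8 of the list were called higher and 2 lower in the Pkd1 model, where 21.5% of all miRNAs passed (10.3% as higher), and 8 higher and 3 lower in Pkd2 kidneys, where 28.3% did (11.4% as higher), with list medians of 0.58 and 0.54 against -0.03 and -0.06 over all miRNAs. The largest changes were those of miR-433-3p, at -2.08 ± 0.67 and -2.09 ± 0.41 (SE), and miR-382-5p, at -1.65 ± 0.54 and -1.76 ± 0.36 (SE). They were followed by miR-150-5p at 1.75 ± 0.44 (SE) in the Pkd1 model and miR-192-5p, a tubule miRNA, at 1.49 ± 0.35 (SE) in the Pkd2 model, which with library totals alone were 1.00 and 0.84 and did not pass. In Pkd1 WT kidneys the calls of miR-433-3p and miR-382-5p were lost without P1 replicate 1, when their log2 fold changes were -0.52 and -0.81, or without any 1 of the P7 libraries, with adjusted p in edgeR of 0.0667 to 0.521. So miR-433-3p and miR-382-5p were lower with age in both models and higher in Pkd2 KO kidneys at P7, whereas miR-29a-3p was higher in all of these comparisons.

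The miRNAs whose levels ran most like those of a member over the 12 group means were sought among 322 miRNAs with a mean of at least 10 CPM. For miR-29a-3p they were miR-21a-5p, with a Spearman's rho of 0.87, miR-222-3p with 0.84 and miR-1843b-5p with 0.83. For miR-29b-3p they were miR-142a-5p with 0.78, miR-362-3p with 0.73 and miR-141-3p with 0.71. For miR-29c-3p they were miR-193a-3p with 0.99, miR-425-5p with 0.94 and the endothelial miR-126a-3p with 0.94. Among the members themselves rho was 0.68 between miR-29a-3p and miR-29b-3p, 0.11 between miR-29a-3p and miR-29c-3p, 0.08 between miR-29b-3p and miR-29c-3p, and 0.92 between the 5p strands miR-29a-5p and miR-29c-5p. The 12 means share libraries, models and scaling, and the values are given as a description with no test.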

How the data were processed

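Small RNA of whole kidneys, extracted with Trizol, was sequenced in 36 libraries. The authors removed adaptors, discarded reads of 17 bases or fewer and quantified the rest with miRDeep2 (version not given in the sources used here) against miRBase release 21 and mm10. CASAVA 1.8.2 and HTSeq are also named in the submitters' processing notes. The deposited values are raw read counts per mature miRNA and hairpin, in 2061 rows. A miRNA listed under several hairpins was represented by its row of highest total.

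The tests used edgeR 4.0.16 (R 4.3.3): 1 term per group, 18 libraries of a model per fit (36 for differences between models), a minimum of 10 counts in 3 libraries (706, 746 and 775 miRNAs), TMM factors, the quasi-likelihood F-test and Benjamini-Hochberg adjustment over all miRNAs tested, with a threshold of 0.05. The SE is the log2 fold change divided by the square root of F. Levels were scaled over 36 libraries and fold changes within a fit, so the scales differ. For miR-29a-3p the level over 36 libraries and that within the model were 23.8 and 17.9 CPM in Pkd1 WT at P1, replicate 1. In Pkd2 KO at P7, replicate 1, they were 60.8 and 75.4 CPM. Read ratios (0.5 reads added) were compared with an exact permutation test of 400 arrangements within models, adjusted over 16 tests. Scripts were tested on simulated data. Alternatives were DESeq2 1.42.0, other scaling, no filter, a miR-10 covariate, a replicate block, other rows or libraries, and each replicate left out. Leaving out libraries over 70% miR-10 was added after the data were seen.

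The members, the list of 20 miRNAs and the markers were chosen with earlier results of these data known. All 5 members were tested in every comparison, but values that did not pass are not all given, least often those of the 5p strands. Up to 3 called miRNAs of the list are named in a comparison, and the 3 miRNAs most like each 3p member are named. Depth was 12569939 to 32663566 reads per library. No sex or batch is given in the labels, and neither was used.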

Additional observations from a re-analysis of the deposited data

How the results depend on the processing

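Of the 20 comparisons the number of called members changed under a setting in 9 and was the same under every setting run in the other 11. Between KO and WT in the Pkd2 model at P7 the 2 called members became 0 with library totals alone, 1 when only the compared libraries were fitted, 3 with DESeq2, without the filter on low counts or with the miR-10 covariate, when miR-29a-5p passed too, and 0 to 3 when single libraries were left out. The call of miR-29a-3p was lost with library totals (log2 fold change 1.41, adjusted p = 0.0944 in edgeR) and without KO replicate 3. In Pkd1 WT kidneys from P1 to P3 the count of 1 became 0 with library totals, with the compared libraries alone or without libraries over 70% miR-10, and 2 with the miR-10 covariate. From P3 to P7 library totals left the count at 1 with another member in the other direction, miR-29c-3p lower at -1.59 in place of miR-29b-3p, which stood at 0.23. The count of 1 became 0 without the filter on low counts or without libraries over 70% miR-10, 2 with the compared libraries alone and 3 with DESeq2, and it ran from 0 to 1 with single libraries left out. From P1 to P7 the count of 3 became 1 with library totals, without the filter or with the compared libraries alone, 5 with the covariate and 0 without libraries over 70% miR-10, and it ran from 1 to 3 with single libraries left out. The count of 1 in Pkd2 WT kidneys from P1 to P7 became 0 with library totals or without the filter, and ran from 0 to 1 with single libraries left out. In KO kidneys from P1 to P7 the Pkd1 count of 2 became 0 with library totals or without libraries over 70% miR-10, 1 without the filter, 3 with DESeq2 or with the compared libraries alone and 0 to 2 with single libraries left out. The Pkd2 count of 3 became 1 with library totals and ran from 1 to 3 with single libraries left out. Without the filter or with the compared libraries alone it lost the call of miR-29b-3p (adjusted p = 0.0502 and 0.0580 in edgeR). The KO effect at P7 against P1 in the Pkd2 model had 1 called member without libraries over 70% miR-10, and the difference between the models at P7 had 1 with the covariate. The cause of these changes was not tested.

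With the replicate number as a block the count between KO and WT in the Pkd2 model at P7 was 1 in place of 2, since miR-29b-3p had an adjusted p of 0.0776 in edgeR, and in Pkd1 KO kidneys from P1 to P7 it was 3 in place of 2, since miR-29a-5p had 0.0492. The numbers were not taken as pairing the libraries, because correlations of same-numbered libraries, between genotypes and between ages, ran from -0.41 to 0.47 in the Pkd1 and from -0.49 to 0.54 in the Pkd2 model. Between genotypes at the same age 10 of 36 libraries correlated best with their own number, among the 3 libraries of the other genotype. Between ages this was not counted. In 1 of 18 comparisons, Pkd2 WT at P7 against P3, all pairs were above 0.1, and its count of called members was 0 with and without the block. The other counts were the same with the block.

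Values that did not pass could turn sign. With library totals alone the log2 fold change was 0.47 for miR-29b-3p (Pkd1 WT, P3 against P1), -0.17 for miR-29a-3p (Pkd1 WT, P7 against P3) and -0.038 for miR-29c-3p (Pkd1 WT, P7 against P1). In Pkd2 WT kidneys it was -0.012 for miR-29a-3p from P3 to P7, and from P1 to P7 -0.63 for miR-29b-3p, -0.43 for miR-29c-3p and -0.054 for miR-29c-5p. From P1 to P7 in KO kidneys it was -0.84 for miR-29c-3p and -0.084 for miR-29c-5p in the Pkd1 model, and -0.61 and -0.15 in the Pkd2 model. The change of the Pkd2 KO effect from P1 to P7 was -0.18 for miR-29c-3p. With the covariate miR-29b-3p stood at 0.033 from P1 to P3 in Pkd1 WT and at -0.00064 from P1 to P7 in Pkd2 WT kidneys, and miR-29c-5p at -0.012 from P1 to P7 in Pkd2 KO kidneys. Without libraries over 70% miR-10 the KO value in the Pkd1 model at P7 was -0.21 for miR-29a-3p and -0.15 for miR-29b-3p, and that in the Pkd2 model at P3 was 0.65 for miR-29c-5p.

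With single libraries left out, these KO against WT values changed sign. In the Pkd1 model miR-29b-3p at P1 ran from -0.018 to 0.59 and miR-29c-3p at P3 from -0.23 to 0.26. In the Pkd2 model miR-29c-3p ran from -0.022 to 0.28 at P1 and from -0.040 to 0.21 at P7, miR-29b-3p at P3 from -0.10 to 0.44, and miR-29c-5p from -0.98 to 0.66 at P3 and from -0.044 to 1.12 at P7. In WT kidneys miR-29b-3p ran from -0.31 to 0.17 (Pkd1, P3 against P1) and from -0.14 to 0.31 (Pkd2, P7 against P1), and the change of the Pkd2 KO effect of miR-29c-3p from -0.19 to 0.17. The log2 ratio of miR-29b-3p to miR-29a-3p between KO and WT ran from -0.15 to 0.095 at P1 and from -0.15 to 0.080 at P7, and that of miR-29c-3p to miR-29c-5p from -0.64 to 0.25 at P3 and from -0.33 to 0.26 at P7. No ratio passed its adjusted threshold in any of the settings run.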
